A study of Mus musculus with 10 samples.

Results

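The Wnt, Fgf and hedgehog signalling genes on this array were 62 probes out of 8983 that carry a single gene symbol in the platform annotation, chosen by name: Wnt ligands, Frizzled and Lrp5/6 receptors, Dkk and Sfrp antagonists, Axins, Fgf ligands and receptors, hedgehog ligands, Patched and Gli1 to Gli3. Each gene had 1 probe, and Fgfr1op2, a gene named as a fusion partner of Fgfr1 and not itself an Fgf receptor, matched by its name alone. The measurements came from testes of male Balb-c mice aged 9 weeks, 15 animals in 5 groups of 3, with the RNA of each group pooled and put on 2 one-colour CodeLink arrays. A carrier control pool (dimethylsulfoxide and PBS) was killed at 10 h, and 4 pools that had received 60 µg of trichostatin A (TSA), an inhibitor of class I and II histone deacetylases, as 1 subcutaneous injection were killed at 2.5, 5, 7.5 and 10 h. The labels name no transgene or deletion, every group was 1 pool, and the 10 h TSA pool alone matched the control in hour of death. The 2 arrays of a pool were technical duplicates, so each group had n = 1, and p-values do not measure the spread between mice. For TSA against control, p-values and standard errors rest on the spread of the 4 TSA pools, since the lone control pool is fitted exactly. How far the control pool may be off is taken from the TSA pools and was not measured. For a slope per hour, they measure the spread of 5 pools around a line.

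Wnt proteins bind a Frizzled receptor together with Lrp5 or Lrp6, which takes the Axin scaffold out of the complex that destroys β-catenin; Dkk and Sfrp proteins block that step from outside the cell. Most Fgf proteins are secreted and signal through receptor tyrosine kinases to the Ras and MAP kinase cascade, whereas Fgf11 to Fgf14 stay inside the cell and bind voltage-gated sodium channels. Hedgehog proteins relieve the block that Patched puts on Smoothened and so switch on Gli transcription factors, with Gli1 itself a target. In the testis, Desert hedgehog from Sertoli cells acts on Leydig and peritubular cells, Fgf2 is a growth factor for spermatogonial stem cells, and Fgf9 and Wnt4 act against each other when the gonad takes on its sex. Dhh, Fgf8 and Wnt6 were not analysed here.

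Promoters are shown for Fzd7, Fgf3 and Wnt7a, the 3 genes that gained signal after TSA by the rules given below, from 250 bases before to 50 after the transcription start in the RefSeq table of build GRCm38.p6. Capitals mark each GC box, the letters GGGCGG or their reverse complement, to which Sp1 family factors are known to bind. The Fzd7 promoter was at chr1:59481897-59482196 (plus strand). That of Fgf3 was at chr7:144838362-144838661 (plus strand) and that of Wnt7a at chr6:91411304-91411603 (minus strand).
Fzd7: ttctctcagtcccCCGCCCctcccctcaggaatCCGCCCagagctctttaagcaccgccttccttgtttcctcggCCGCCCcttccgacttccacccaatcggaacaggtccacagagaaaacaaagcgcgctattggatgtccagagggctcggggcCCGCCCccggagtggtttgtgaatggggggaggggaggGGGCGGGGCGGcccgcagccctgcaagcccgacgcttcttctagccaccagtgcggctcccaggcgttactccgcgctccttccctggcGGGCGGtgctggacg
Fgf3: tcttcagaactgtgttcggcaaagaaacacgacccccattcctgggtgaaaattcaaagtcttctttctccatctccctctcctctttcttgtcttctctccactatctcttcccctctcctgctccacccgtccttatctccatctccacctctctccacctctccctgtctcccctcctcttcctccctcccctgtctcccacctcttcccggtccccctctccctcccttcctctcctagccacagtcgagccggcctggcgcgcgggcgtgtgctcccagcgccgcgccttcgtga
Wnt7a: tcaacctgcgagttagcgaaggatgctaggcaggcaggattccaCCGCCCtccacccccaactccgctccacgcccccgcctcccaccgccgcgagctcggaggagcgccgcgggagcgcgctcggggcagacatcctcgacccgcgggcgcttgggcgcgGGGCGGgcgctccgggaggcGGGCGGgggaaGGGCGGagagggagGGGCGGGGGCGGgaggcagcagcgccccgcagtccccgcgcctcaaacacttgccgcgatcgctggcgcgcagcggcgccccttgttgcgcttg
The Fzd7 window held 24 CpG dinucleotides and 7 GC-box matches, overlapping ones included, and the Wnt7a window held 42 CpG and 6 matches. The Fgf3 window had 14 CpG and no match, so GC boxes were not shared by the 3 promoters. Of the 26 signalling genes bright enough to test, 18 had an entry, with 23 promoters, of which 18 (78.3%) held a GC box on either strand. Of all 32851 promoters of this length in the table, 35.7% did, and the median promoter had 7 CpG. Fgf12 and Wnt5b each gave several of the 23 promoters, and the sets were not matched in CpG content. Most of the 18 genes met no rule for a change after TSA. Other letters searched on both strands were TATAAA (13.6% of all promoters), CTTTGAT (3.73%) and CTTTGTT (5.85%), 2 forms of the TCF/LEF site through which β-catenin acts, and GACCACCCA (0.253%), the Gli site. Among Fzd7, Fgf3 and Wnt7a there was 1 match to these, a CTTTGTT in the Fzd7 window. Axin1, the gene that lost signal, and Gli1 are named without a promoter.

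Signal is the deposited intensity, on a scale where the median of all values on the arrays was 1.00, and the sorted values were the same on all 10 arrays. Duplicate arrays correlated at r = 0.995 to 0.998 across probes, and the SD of a single array lay between 0.0934 (5 h pool) and 0.163 (7.5 h pool) on the log2 scale. Spermatid markers, 10 of the 14 listed, summed to 900.4 to 957.9 at 2.5 h, 932.1 to 933.1 at 5 h, 951.8 to 963.2 at 7.5 h and 949.2 to 998.9 at 10 h, compared with 912.6 to 934.8 on the control arrays. Single spermatid markers went both ways. Tnp1, Acrv1, Odf2 and Gapdhs were above control in every TSA pool (Acrv1 22.8 in the control pool, 35.8 at 10 h). Acr and Tcp11 were below it in every TSA pool (Tcp11 17.2 in the control pool, 8.15 at 10 h). Of the measured Sertoli cell markers, 8 of 9 were above the filter on dim probes, with Sox9 below it. They summed to 54.55 to 57.1 at 2.5 h and 56.6 to 60.2 at 5 h, above the 48.7 to 54.51 of the control arrays. Their sums at 7.5 and 10 h lay within the control range. Clu, the brightest of these markers, was at 32.3 in the control pool, 37.4 at 2.5 h and 35.3 at 5 h. Sox9, Wt1, Rhox5, Inha and Trf were lower at 2.5 h than in the control pool. At 5 h Sox9 and Inha were lower, and Inha was lower in every TSA pool (2.36 to 3.23, control 3.91). Trf, which is also in the liver list, was at 1.13 in the control pool and 5.17 at 5 h. Spermatogonial markers (6 of 9) summed to 22.8 to 24.8 at 5, 7.5 and 10 h, below the 25.4 to 25.97 of the control arrays, and overlapped control at 2.5 h. Stra8 was at 6.81 in the control pool and 4.63 to 5.55 at 5, 7.5 and 10 h. Ret went the other way, at 0.550 in the control pool and 0.634 to 0.728 in the TSA pools. Uchl1, the brightest, was above control at 2.5, 5 and 7.5 h, and Gfra1 was above it at 10 h. Spermatocyte markers (9 of 11 listed, all above the filter) summed to 378.7 to 396.8 on the TSA arrays, below the 409.1 to 415.9 on the control arrays. Ldhc, the brightest of them, went the other way, at 195.5 in the control pool and 210.7 to 219.1 in the TSA pools. Ccna1 was above control at 5 and 10 h, and the other measured markers were lower in every TSA pool. Pgk2, for example, was at 91.2 in the control pool and 63.8 to 73.3 in the TSA pools. Leydig cell markers (5 of 8) were at 128.7 to 144.9 at 2.5 h and 128.1 to 133.6 at 10 h, above the 110.7 to 117.5 of the control arrays. Most of this sum was Cyp17a1, at 85.9 in the control pool, 103.9 at 2.5 h and 99.1 at 10 h. Star at 2.5 h (3.03, control 3.23) and Cyp11a1 at 10 h (3.57, control 3.65) were lower. Peritubular myoid markers (5 of 6) were at 15.3 to 15.6 at 5 h, below the 19.8 to 20.9 of the control arrays. Brain and neuron genes (12 of 16, 8 above the filter) were at 24.6 to 25.97 at 7.5 h, above 19.3 to 20.1. Much of that rise was Ncan, at 2.47 in the control pool and 6.45 at 7.5 h. Gad2, Nefm and Syp were lower at 7.5 h than in the control pool. The 5 h pool stood apart, because 18 measured liver genes summed to 218.6 to 219.3 there and to between 13.7 and 17.8 on every other array. Apoa1, for example, averaged 28.5 in the 5 h pool and 0.0708 in the control pool. Macrophage and leukocyte markers, 5 of 8 listed and 2 of them above the filter, summed to 2.04 to 2.54 on the TSA arrays and 2.75 to 3.06 on the control arrays. Most of this sum was Lyz2 and Cd14, both lower in every TSA pool. The dim Adgre1 and Itgam were higher than control in every TSA pool, and Ptprc in all but the 5 h pool. The part of these shifts in the results below was not tested. In whole testis, fewer cells of a type and less RNA per cell cannot be told apart.

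Most of these genes were dim. A probe was tested when its mean over all 10 arrays was above the lowest 25% of probes, a limit of 0.207. Of the 62 members, 26 (41.9%) were above it, compared with 75.0% of all single-symbol probes. Since 8 of the 10 arrays were from TSA pools, a gene that is high after TSA passed this limit more easily, and the 26 are not the whole set. The other 36 had mean signals of 0.0365 to 0.195, and 18 of them were under 2 times the floor of 0.0364 below which values were not told apart. By role, 8 of 13 Wnt ligands, 4 of 10 Frizzled and Lrp receptors, 2 of 7 Wnt antagonists, 1 of 2 Axins, 6 of 14 Fgf ligands and 3 of 4 intracellular Fgf factors were above the limit, along with Dkkl1. None of the 4 Fgf receptors, neither of the 2 hedgehog ligands and 1 of 4 Patched and Gli genes were. A low signal on 1 probe does not show that the gene was silent, because probes differ in how well they hybridise.

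**Figure D1:**
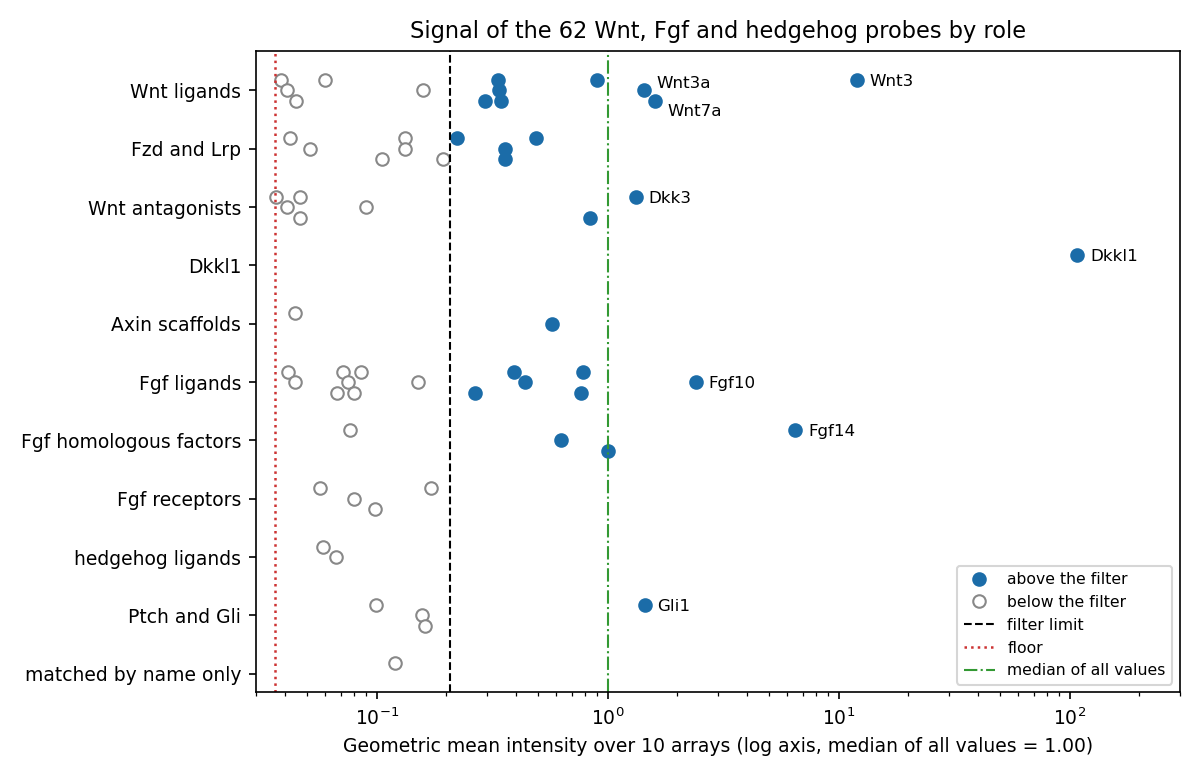
Mean signal of each of the 62 probes over 10 arrays (geometric mean, log axis), 1 point a gene, in rows by role; filled points were above the filter limit of 0.207 and open points below it, and dotted and dash-dotted lines mark the floor of 0.0364 and the median of all values. Fgf receptors and hedgehog ligands lie wholly below the limit, and Dkkl1 lies at 108.2.

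In the comparison of the 4 TSA pools with the control pool, Fzd7 and Fgf3 were higher after TSA and no member was lower (limma on pool means, adjusted p under 0.05 over 7422 probes). Of all tested probes 2.74% were higher and 0.795% lower by the same test. A second test asked for a steady change over the hours after TSA, with the control as 0 h. Axin1 fell and no member rose, against 0.35% of all probes rising and 1.66% falling. The calls for Fzd7, Fgf3 and Axin1 ended with arrays centred within 50 bins of probe number (adjusted p = 0.0540, 0.0542 and 0.0544), with an offset of 1 (0.0711, 0.0792 and 0.0860) and with no filter on dim probes (0.125, 0.125 and 0.149). With the offset the log2 folds of Fzd7 and Fgf3 shrank to 0.26 and 0.28 and the slope of Axin1 to −0.0412 per hour, whereas without the filter the same fits gave 1.17, 1.17 and −0.108. At an unadjusted p under 0.05, 8 members differed between TSA and control, 7 of them higher, and 12 had a slope, 10 rising and 2 falling. Over all probes these shares were 28.3% and 25.1%. The median log2 fold of the 26 members was 0.16, and that of all tested probes was −0.02. Of the members, 16 (61.5%) lay above 0, as did 47.9% of all probes. The filter on dim probes favours probes that are higher after TSA, and a smaller share of members than of all single-symbol probes passed it. Members and all probes are therefore not compared evenly in these medians and shares. In 9 members every TSA array was above both control arrays (22.2% of all tested probes) and in 2, Axin1 and Fgf12, every one was below (23% of all tested probes).

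For single times, with 1 pool on each side, no test was possible, and a change was counted when it was at least 2-fold with both TSA arrays beyond both control arrays. At 2.5 h, Fgf3 and Fzd7 met this rule upward and no member downward (0.674% and 0.243% of all tested probes). At 5 h Fgf3 alone met it (1.21% of probes higher, 0.337% lower), and at 7.5 h Fzd7 and Wnt7a did (1.01% higher, 0.903% lower). At 10 h, the time matched to the control, Fgf3 and Fzd7 were higher and Axin1 was lower (1.23% and 1.44% of probes). The median log2 fold of the 26 members was 0.05, 0.10, 0.19 and 0.25 at 2.5, 5, 7.5 and 10 h, and that of all tested probes −0.02, −0.03, −0.01 and 0.01 at the same times. The same limit of the filter on dim probes holds for these medians. Since the 4 times share 1 control pool, an error in that pool enters all of them.

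**Figure D2:**
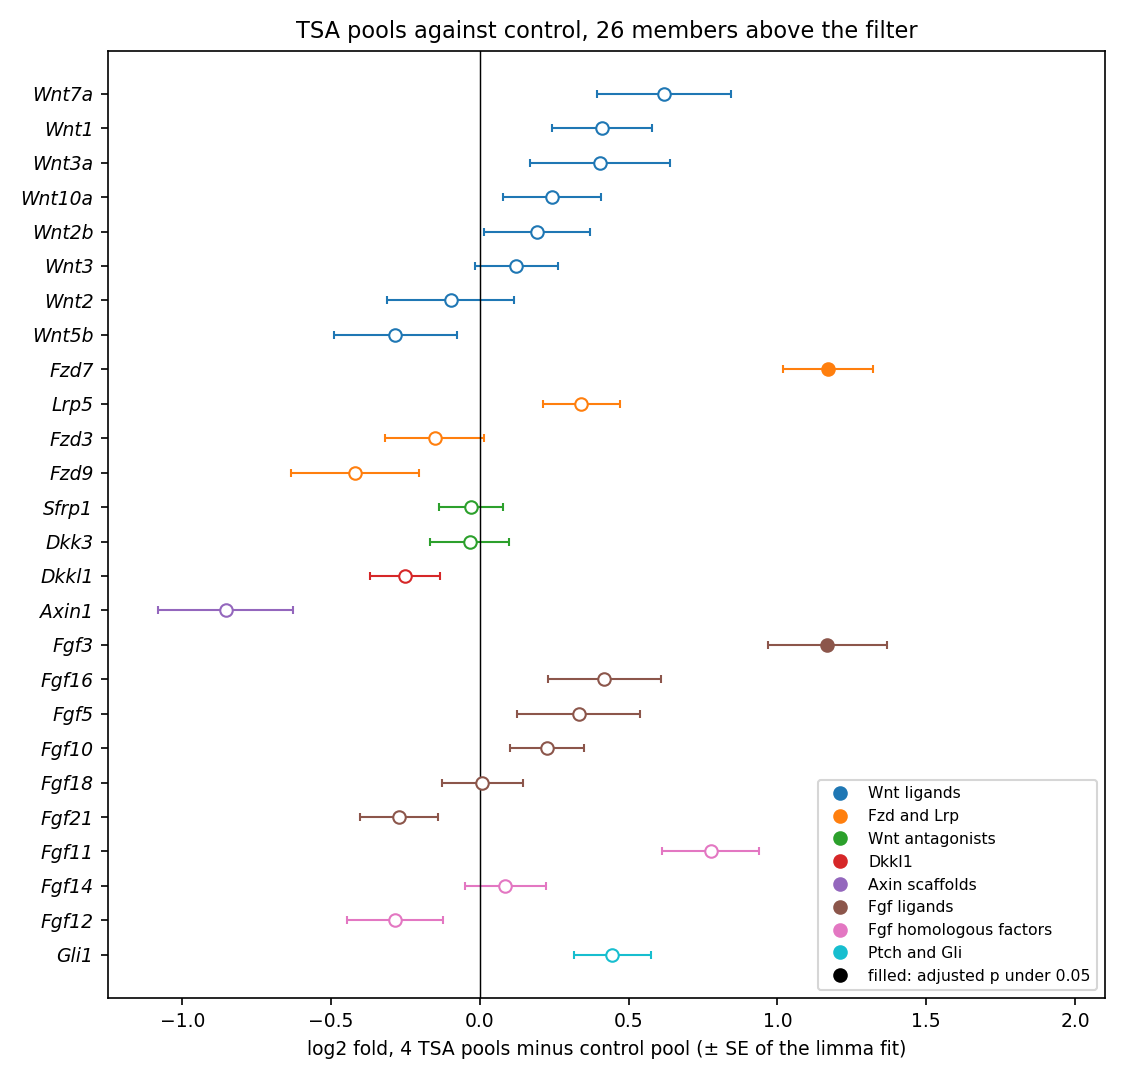
Log2 fold of the 4 TSA pools over the control pool for the 26 members above the filter (points, with bars of ± 1 SE from the limma fit), ordered by role and coloured by it; filled points had an adjusted p under 0.05. Fzd7 and Fgf3 both lie at 1.17, and Axin1 is farthest below 0 at −0.85.

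Among the receptors, Fzd7, a Frizzled used in β-catenin signalling in stem and progenitor cells, had signals of 0.230 and 0.152 on the control arrays, 0.428 and 0.403 at 2.5 h, 0.389 and 0.345 at 5 h, 0.395 and 0.521 at 7.5 h, and 0.442 and 0.472 at 10 h. Every TSA array was above both control arrays, and the 4 times lay close together. The log2 fold over all TSA pools was 1.17 ± 0.15 (SE; limma, adjusted p = 0.0400), or 2.25-fold. By time it was 1.15 ± 0.30, 0.97 ± 0.31, 1.28 ± 0.36 and 1.29 ± 0.30 at 2.5, 5, 7.5 and 10 h (SE from duplicate arrays). The control pool mean of 0.187 was under the filter limit, so the probe was tested because of its TSA values. The adjusted p rose above 0.05 without any 1 of the TSA pools (0.0564 without 2.5 h, 0.0712 without 5 h, 0.103 without 7.5 h and 0.0598 without 10 h), without array 2 at 2.5 h (0.0510) and without array 1 at 7.5 h (0.0679). The log2 folds in these fits were 1.13 to 1.24. On the log2 scale the control arrays differed from each other by more than any TSA pair, and without control array 2 the log2 fold was 0.87 (adjusted p = 0.0382) and the 2-fold rule was met at no time.

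The other receptors above the limit moved less. Lrp5, a co-receptor for Wnt known from bone mass, read 0.377 and 0.236 on the control arrays, 0.439 and 0.387 at 2.5 h, 0.378 and 0.377 at 5 h, 0.338 and 0.428 at 7.5 h, and 0.366 and 0.327 at 10 h, with its TSA arrays 0.34 ± 0.13 above control on the log2 scale (limma, adjusted p = 0.147). The groups overlapped, and without control array 1 it passed the test (log2 fold 0.68; limma, adjusted p = 0.0479). Without control array 2 its log2 fold was 0.0031 (adjusted p = 0.990). Fzd3, a Frizzled that guides growing axons, gave 0.503 and 0.564 in the control pool, 0.441 and 0.475 at 2.5 h, 0.450 and 0.465 at 5 h, 0.450 and 0.429 at 7.5 h, and 0.507 and 0.648 at 10 h. Its pools were below control at the first 3 times and above it at 10 h, and over all TSA pools it was at −0.15 ± 0.17 on the log2 scale (limma, adjusted p = 0.581). Fzd9 lay just inside the limit (mean 0.223), spanned 0.167 to 0.308, and changed by −0.0716 per hour on the log2 scale (limma, adjusted p = 0.0505).

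Just outside the limit was Fzd4 (mean 0.195), a Frizzled that also takes the ligand norrin in blood vessels, with 0.155 and 0.108 on the control arrays, 0.340 and 0.186 at 2.5 h, 0.214 and 0.187 at 5 h, 0.193 and 0.205 at 7.5 h, and 0.240 and 0.194 at 10 h. All 8 TSA arrays were above both control arrays, and the probe was not tested. Lrp6, the co-receptor that with Lrp5 starts β-catenin signalling, was mixed, with 0.113 and 0.105 in the control pool, 0.189 and 0.134 at 2.5 h, 0.167 and 0.155 at 5 h, 0.217 and 0.0944 at 7.5 h, and 0.127 and 0.0822 at 10 h. Fzd1, Fzd2, Fzd6 and Fzd8 spanned 0.0123 to 0.262 over all arrays.

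Of the Wnt ligands, Wnt3, which the early embryo needs to form its primitive streak, had 10.9 and 11.5 on the control arrays, 11.3 and 11.1 at 2.5 h, 11.5 and 12.1 at 5 h, 12.1 and 11.99 at 7.5 h, and 13.1 and 14.3 at 10 h. The 2.5 h arrays lay among the control arrays and the 10 h arrays above all others, but the log2 fold was small (0.12 ± 0.14; limma, adjusted p = 0.593; slope 0.0280 per hour, adjusted p = 0.243). Wnt7a, a ligand that patterns the limb and the female reproductive tract, had 1.21 and 1.07 in the control pool, 1.60 and 1.68 at 2.5 h, 1.55 and 1.56 at 5 h, 1.81 and 2.92 at 7.5 h, and 1.55 and 1.60 at 10 h. No TSA array reached down to the control arrays, yet the log2 fold of 0.62 ± 0.23 did not pass the test (limma, adjusted p = 0.138). It met the 2-fold rule at 7.5 h with a log2 fold of 1.02 ± 0.36, which was 0.67 without array 2 of that pool and 0.93 without control array 2.

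The remaining Wnt ligands above the limit are given by range. Wnt3a, a ligand of somite formation, spanned 1.30 to 2.08 on the TSA arrays and 1.12 to 1.18 on the control arrays, with its highest pair at 10 h (log2 fold 0.82 ± 0.05) and a change of 0.0692 per hour (limma, adjusted p = 0.0898). Wnt1, needed for the midbrain, spanned 0.793 to 1.13 on the TSA arrays and 0.683 to 0.751 on the control arrays (log2 fold 0.41 ± 0.17; limma, adjusted p = 0.170). In both, the TSA and control arrays did not overlap, and the differences did not pass the test over all probes. Wnt10a and Wnt2b had their highest folds at 10 h (0.41 and 0.42 on the log2 scale), and Wnt2 and Wnt5b had log2 folds below 0 over all TSA pools (−0.10 and −0.28). Over the 8 tested ligands, 6 were above 0 and 2 below, with a median log2 fold of 0.22. None passed either limma test. At an unadjusted p under 0.05, 2 were higher after TSA and 0 lower, and 4 had a rising slope and 0 a falling one. Of all probes 28.3% and 25.1% passed these limits, counted in either direction.

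The ligands below the limit included Wnt4, which directs the female gonad, with 0.0243 and 0.0327 in the control pool, 0.0291 and 0.0289 at 2.5 h, 0.0408 and 0.0301 at 5 h, 0.0513 and 0.138 at 7.5 h, and 0.0490 and 0.0374 at 10 h. Wnt5a, a ligand of the route that does not use β-catenin, gave 0.0571 and 0.0109 in the control pool, 0.0467 and 0.0205 at 2.5 h, 0.0153 and 0.0274 at 5 h, 0.0272 and 0.0205 at 7.5 h, and 0.0412 and 0.0503 at 10 h. Most of these values were under the floor, where they have no order. Wnt7b, Wnt10b and Wnt11 spanned 0.0177 to 0.239.

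Axin1, the scaffold on which β-catenin is marked for destruction, fell over the hours after TSA. It read 0.957 and 0.894 on the control arrays, 0.636 and 0.683 at 2.5 h, 0.530 and 0.478 at 5 h, 0.477 and 0.502 at 7.5 h, and 0.436 and 0.408 at 10 h. Every TSA array was below both control arrays, and the 10 h arrays were the lowest. The slope was −0.108 ± 0.018 per hour on the log2 scale (limma, adjusted p = 0.0437), and the log2 fold was −0.49 ± 0.07, −0.88 ± 0.09, −0.92 ± 0.06 and −1.13 ± 0.07 at 2.5, 5, 7.5 and 10 h. The mean of the 4 TSA pools was 0.553 times that of the control (log2 fold −0.85 ± 0.23; limma, adjusted p = 0.0782). Within the 4 TSA pools alone the slope was −0.0789 per hour (adjusted p = 0.195), so the slope rests in part on the control, which was killed at 10 h and was set at 0 h only by exposure. Its adjusted p was also above 0.05 without the 2.5, 5, 7.5 or 10 h pool (0.0588, 0.0563, 0.0994 and 0.165), without array 1 at 5 h (0.0547) and without array 1 or 2 at 7.5 h (0.0632 and 0.0507).

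Axin2, a scaffold of the same kind that β-catenin itself switches on, was near the floor, with 0.0408 and 0.0715 in the control pool, 0.0168 and 0.0311 at 2.5 h, 0.0236 and 0.0217 at 5 h, 0.0352 and 0.0807 at 7.5 h, and 0.0549 and 0.0019 at 10 h. No direction can be read from these. Of the secreted antagonists, Sfrp1 had 0.881 and 0.828 in the control pool, 0.803 and 0.878 at 2.5 h, 0.844 and 0.799 at 5 h, 0.861 and 0.779 at 7.5 h, and 0.885 and 0.857 at 10 h. Dkk3, a Dickkopf family member, gave 1.41 and 1.29 in the control pool, 1.79 and 1.13 at 2.5 h, 1.29 and 1.18 at 5 h, 1.32 and 1.16 at 7.5 h, and 1.33 and 1.47 at 10 h. Both overlapped between TSA and control, with log2 folds of −0.03 ± 0.11 for Sfrp1 and −0.03 ± 0.13 for Dkk3 (limma, adjusted p = 0.885 and 0.892). The other antagonists, Dkk1, Dkk2, Sfrp2, Sfrp4 and Sfrp5, spanned 0.0046 to 0.138.

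Dkkl1 shares a name with the antagonists but is a protein of the spermatid acrosome, and its probe was brighter than 99.5% of probes. It read 140.2 and 110.5 on the control arrays, 103.9 and 113.1 at 2.5 h, 107.1 on both arrays at 5 h, 103.9 and 108.1 at 7.5 h, and 99.1 and 94.8 at 10 h. The arrays overlapped at 2.5 h, and the difference did not pass the test (log2 fold −0.25 ± 0.12; limma, adjusted p = 0.212). The 2 control arrays were farther apart than the arrays of any TSA pool.

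**Figure D3:**
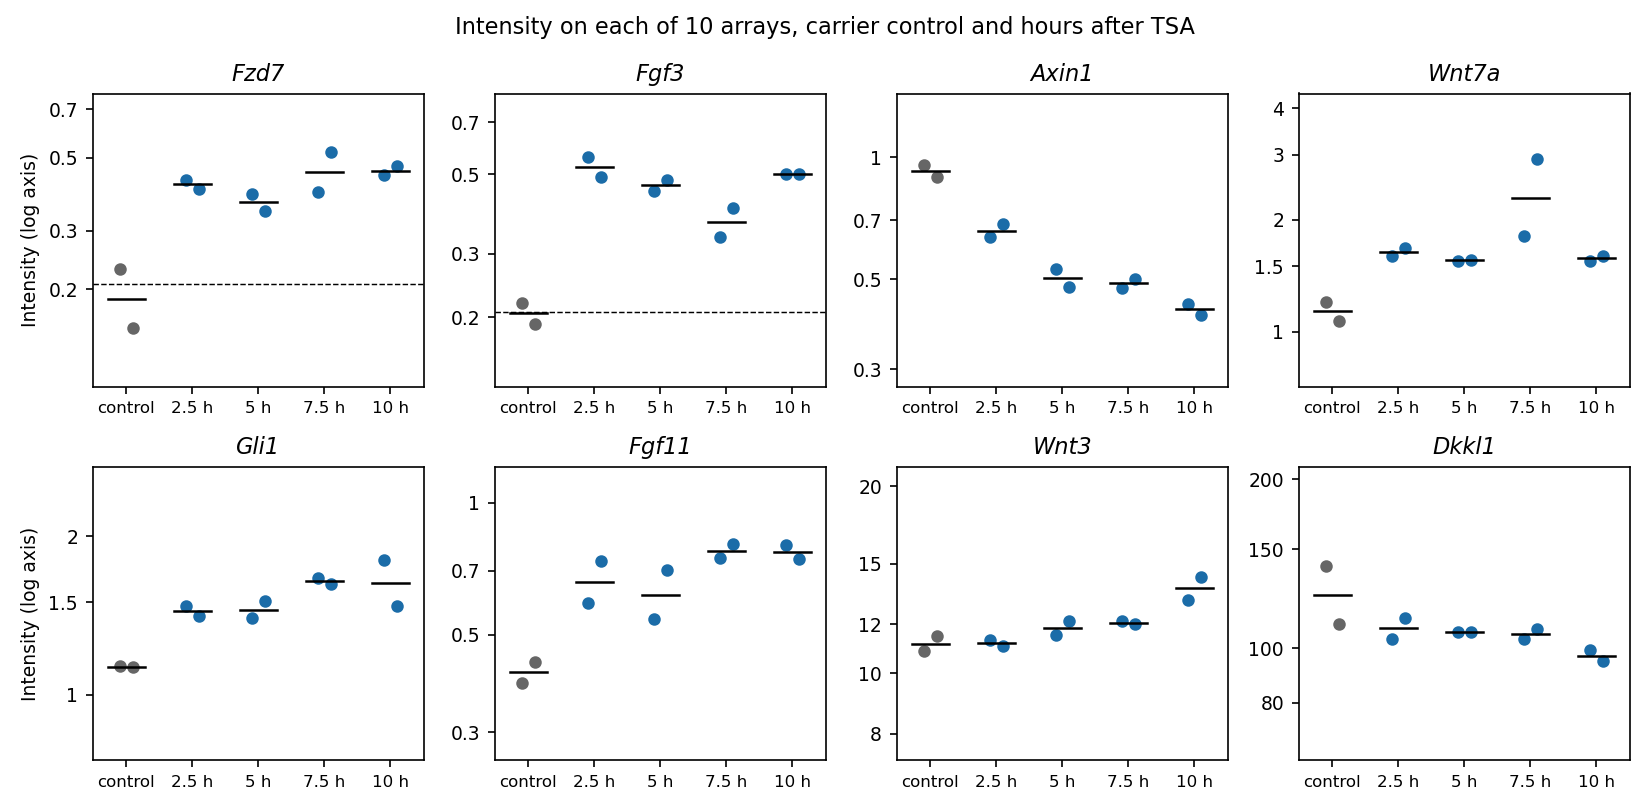
Signal on each of the 10 arrays (log axis, its range set per gene) for 8 members, with the control and then the hours after TSA from left to right; points are arrays, short lines are pool means, and the dashed line in the Fzd7 and Fgf3 panels is the filter limit of 0.207. The pool means of Fzd7 and Fgf3 lie over that line at each time after TSA and under it in the control, Axin1 steps down to 0.436 and 0.408 at 10 h, and Wnt7a stands out at 7.5 h on 1 array.

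Among the Fgf ligands, Fgf3, which is secreted and needed for the inner ear, had 0.219 and 0.192 on the control arrays, 0.560 and 0.491 at 2.5 h, 0.449 and 0.483 at 5 h, 0.335 and 0.403 at 7.5 h, and 0.502 and 0.501 at 10 h. Every TSA array was above both control arrays, with the 7.5 h pool the lowest of the 4. The log2 fold over all TSA pools was 1.17 ± 0.20 (limma, adjusted p = 0.0474), and by time it was 1.36 ± 0.14, 1.18 ± 0.11, 0.84 ± 0.16 and 1.29 ± 0.10 at 2.5, 5, 7.5 and 10 h. As with Fzd7, the control pool mean (0.205) was under the filter limit. The adjusted p was above 0.05 without the 2.5, 5, 7.5 or 10 h pool (0.0604, 0.0910, 0.0538 and 0.0606). It was also above 0.05 without array 1 or 2 at 2.5 h (0.0505 and 0.0610), array 2 at 5 h (0.0536), array 1 or 2 at 7.5 h (0.0632 and 0.0631) and array 1 at 10 h (0.0559). The log2 fold stayed between 1.10 and 1.28 in these fits.

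Fgf10, a ligand of limb and lung budding, had 2.11 and 2.14 in the control pool, 2.47 and 2.15 at 2.5 h, 2.64 and 2.27 at 5 h, 2.62 and 2.50 at 7.5 h, and 2.65 and 2.68 at 10 h. Fgf5, which ends the growth phase of hair, gave 0.630 and 0.671 in the control pool, 0.780 and 0.658 at 2.5 h, 0.696 and 0.715 at 5 h, 0.919 and 0.905 at 7.5 h, and 0.884 and 1.07 at 10 h. The later pools of both lay above the control, but neither passed a test (log2 folds 0.23 ± 0.12 and 0.33 ± 0.21; limma, adjusted p = 0.275 and 0.329; slopes 0.0321 and 0.0603 per hour, adjusted p = 0.178 and 0.0835). Fgf16, an X-linked ligand, ranged from 0.394 to 0.608 on the TSA arrays and from 0.343 to 0.352 on the control arrays, and its log2 signal went up by 0.0647 each hour in the fit without passing (limma, adjusted p = 0.0646). Fgf18 was level (log2 fold 0.01 ± 0.14). Fgf21, a hormone made by the liver, had 0.245 and 0.298 in the 5 h pool, where the liver genes were high, against 0.321 and 0.298 in the control pool.

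Fgf2 and Fgf9, both of interest in the testis, were below the limit. Fgf2 had 0.0916 and 0.0544 on the control arrays, 0.0845 and 0.0759 at 2.5 h, 0.0734 and 0.153 at 5 h, 0.138 and 0.0713 at 7.5 h, and 0.0913 and 0.0646 at 10 h. Fgf9 gave 0.121 and 0.141 in the control pool, 0.168 and 0.166 at 2.5 h, 0.140 and 0.105 at 5 h, 0.186 and 0.199 at 7.5 h, and 0.132 and 0.181 at 10 h. Both overlapped between TSA and control arrays. The remaining ligands below the limit, Fgf1, Fgf7, Fgf15, Fgf17, Fgf22 and Fgf23, spanned 0.0057 to 0.245, and Fgf1 was the 1 dim member with all 8 TSA arrays below both control arrays (7.19% of all dim probes).

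Of the Fgf factors that stay inside the cell, Fgf14 read 5.90 and 6.52 on the control arrays, 5.97 and 5.74 at 2.5 h, 6.42 and 7.30 at 5 h, 6.71 and 6.57 at 7.5 h, and 6.83 and 7.29 at 10 h. Fgf12 had 1.22 and 1.13 in the control pool, 0.854 and 0.804 at 2.5 h, 1.03 and 1.04 at 5 h, 0.989 and 0.903 at 7.5 h, and 1.06 and 1.08 at 10 h. Fgf14 overlapped the control, and Fgf12 was below it on every TSA array without passing the test (log2 fold −0.28 ± 0.16; limma, adjusted p = 0.290). Fgf11, chosen after its values were seen, had 0.388 and 0.433 in the control pool, 0.590 and 0.735 at 2.5 h, 0.542 and 0.701 at 5 h, 0.746 and 0.804 at 7.5 h, and 0.800 and 0.745 at 10 h. All its TSA arrays were above control, and its log2 fold of 0.78 ± 0.16 missed the threshold narrowly (limma, adjusted p = 0.0526). Fgf13 was below the limit and spanned 0.0295 to 0.233.

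No Fgf receptor was tested. Fgfr1 had 0.163 and 0.1798 on the control arrays, 0.223 and 0.253 at 2.5 h, 0.187 and 0.177 at 5 h, 0.127 and 0.1803 at 7.5 h, and 0.148 and 0.125 at 10 h. Fgfr2 gave 0.0754 and 0.0717 in the control pool, 0.196 and 0.106 at 2.5 h, 0.127 and 0.0971 at 5 h, 0.108 and 0.0326 at 7.5 h, and 0.120 and 0.134 at 10 h. Both receptors overlapped the control at 7.5 h. Fgfr3 and Fgfr4 spanned 0.0156 to 0.127. Fgfr1op2 had 0.112 and 0.0777 in the control pool, 0.126 and 0.173 at 2.5 h, 0.0949 and 0.106 at 5 h, 0.255 and 0.0816 at 7.5 h, and 0.126 and 0.130 at 10 h.

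On the hedgehog side, Gli1, the activator that the pathway itself turns on, was the 1 gene above the limit. It read 1.14 and 1.13 on the control arrays, 1.47 and 1.41 at 2.5 h, 1.399 and 1.51 at 5 h, 1.67 and 1.63 at 7.5 h, and 1.81 and 1.47 at 10 h. Every TSA array was above both control arrays, with folds of 0.35 ± 0.03, 0.36 ± 0.05, 0.54 ± 0.02 and 0.53 ± 0.15 on the log2 scale by time. The overall log2 fold of 0.44 ± 0.13 did not pass over all probes (limma, adjusted p = 0.0919), nor did the slope of 0.0499 per hour (adjusted p = 0.116). Centred within 50 bins of probe number the log2 fold was 0.19 (limma, adjusted p = 0.509), and with the lowest 50% of probes left out it passed at 0.44 (adjusted p = 0.04999).

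The receptor Ptch1, also a target of the pathway, was below the limit, with 0.172 and 0.150 in the control pool, 0.206 and 0.154 at 2.5 h, 0.104 and 0.193 at 5 h, 0.173 and 0.0782 at 7.5 h, and 0.229 and 0.255 at 10 h. Only its 10 h pair lay clear of the control arrays. Shh, the Sonic ligand of embryonic patterning, gave 0.0377 and 0.0732 in the control pool, 0.0720 and 0.0634 at 2.5 h, 0.0592 and 0.0948 at 5 h, 0.0945 and 0.0377 at 7.5 h, and 0.0474 and 0.0380 at 10 h. Ihh, the Indian ligand of growing cartilage, had 0.0348 and 0.0265 in the control pool, 0.0679 and 0.116 at 2.5 h, 0.0718 and 0.107 at 5 h, 0.0456 and 0.0587 at 7.5 h, and 0.0959 and 0.0813 at 10 h. Gli2 and Gli3 spanned 0.0555 to 0.266. Counted over the 36 dim members, Fzd4, Gli2, Fgfr3 and Ihh had all 8 TSA arrays above both control arrays (4.97% of all dim probes), and both Ihh control values were under the floor.

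**Figure D4:**
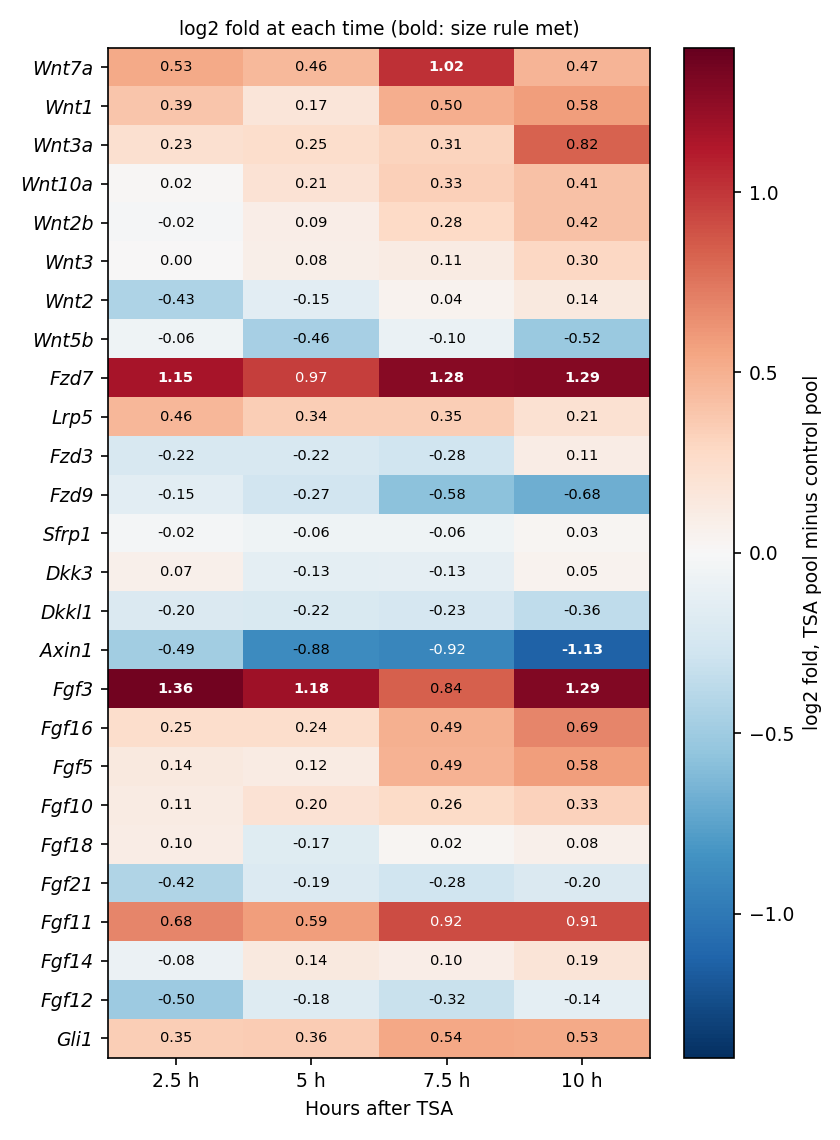
Log2 fold of each TSA pool over the control pool (colour and printed value) for the 26 members above the filter, in rows by role and in columns by hours after TSA; bold values met the 2-fold rule without overlap. The Fzd7 and Fgf3 rows are dark in all 4 columns, Axin1 goes to −1.13 at 10 h, and Wnt3a and Fgf16 have their largest values in the 10 h column.

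The rest of the 3 pathways was taken from lists of other genes. Of 58 listed Wnt pathway genes, 37 had values and 23 were above the limit. In limma 3 were higher after TSA, none lower, and 1 fell over time, with a median log2 fold of 0.06. Over all tested probes 2.74% were higher and 1.66% fell over time. At an unadjusted p under 0.05 in limma, 6 of the 23 were higher after TSA and 1 lower. Slopes rose for 7 and fell for 2 at that limit. Over all probes 28.3% and 25.1% passed these unadjusted limits in either direction. Lgr5, a receptor for R-spondins and a stem cell marker, read 0.730 and 0.655 on the control arrays, 1.38 and 1.05 at 2.5 h, 1.19 and 1.11 at 5 h, 1.11 and 1.14 at 7.5 h, and 1.32 and 1.27 at 10 h, with no overlap (log2 fold 0.79 ± 0.12; limma, adjusted p = 0.0474). Celsr1, a cadherin of planar cell polarity, and Bcl9, a partner of β-catenin, were also higher (log2 folds 0.84 ± 0.14 and 0.63 ± 0.12; limma, adjusted p = 0.0474 for both). The control arrays of Celsr1, at 0.147 and 0.135, were under the filter limit, so this probe too was tested because of its TSA values. Dvl1, which passes the signal from Frizzled to Axin, read 1.81 and 1.79 on the control arrays, 1.37 and 1.45 at 2.5 h, 0.955 and 0.957 at 5 h, 0.873 and 1.31 at 7.5 h, and 0.622 and 0.537 at 10 h. Its slope was −0.147 per hour (limma, adjusted p = 0.0437), and at 10 h its log2 fold was −1.64. Axin1 and Dvl1 thus both had their lowest pair at 10 h.

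The Fgf list had 24 of 36 genes with values and 18 above the limit, none of which passed either limma test, with a median log2 fold of −0.20. At an unadjusted p under 0.05, 3 were lower after TSA and 0 higher, and 1 had a rising and 6 a falling slope; over all probes 28.3% and 25.1% passed these limits in either direction. Cbl, a ubiquitin ligase that has active receptors broken down, was at −0.73 ± 0.38 on the log2 scale (limma, adjusted p = 0.254). The hedgehog list had 17 of 23 with values and 10 above the limit, of which 1 fell over time and none passed the TSA test in limma (2 higher and 2 lower at an unadjusted p under 0.05). At that unadjusted limit 3 slopes rose and 2 fell. The shares over all probes were 1.66% falling, and 28.3% for TSA and 25.1% for slopes at the unadjusted limit. The gene that fell by the adjusted test was Kif3a, a motor subunit that builds cilia. It had 8.41 and 8.53 on the control arrays, 6.89 and 6.44 at 2.5 h, 5.47 and 5.49 at 5 h, 5.18 and 5.52 at 7.5 h, and 4.22 and 4.73 at 10 h (slope −0.0866 per hour; limma, adjusted p = 0.0437). Sufu, which holds Gli proteins back, and Cdon, a co-receptor for hedgehog, had log2 folds of 0.43 ± 0.15 and 0.46 ± 0.14 that did not pass (limma, adjusted p = 0.126 and 0.107).

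Target genes that are not members were few. Of 12 Wnt targets with values, 6 were above the limit and 2 were higher after TSA, Lgr5 again and Fosl1, an AP-1 transcription factor (log2 fold 0.78 ± 0.13; limma, adjusted p = 0.0474), with a median of 0.34 over the 6. Over all tested probes 2.74% were higher, and Lgr5 is counted in both Wnt lists. Of 10 Fgf targets and 8 hedgehog targets with values, 4 and 3 were above the limit and none passed in limma, with medians of 0.10 and 0.15. At an unadjusted p under 0.05, 1 Fgf target was lower, Dusp6, a phosphatase that switches off the MAP kinase Erk (log2 fold −0.39 ± 0.13; limma, adjusted p = 0.124), and 1 hedgehog target was higher. Of all tested probes 28.3% passed that limit in either direction. Genes can stand in several of these lists. Leaving out the 5 h pool, an alternative added after seeing the data, ended all of these list calls (Lgr5 adjusted p = 0.0910, Celsr1 0.0910, Bcl9 0.0963, Fosl1 0.0911, Dvl1 slope 0.0563 and Kif3a slope 0.0715). The log2 folds of the first 4 were then 0.80, 0.88, 0.65 and 0.77. Leaving out the 2.5 h, 7.5 h or 10 h pool also ended them, except for the slope of Dvl1 without the 7.5 h pool (adjusted p = 0.0363).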

How the data were processed

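CodeLink arrays of 5 pools of testis RNA, 2 arrays a pool, were labelled with Cy5, per the labels. The authors deposited 1 table of normalised intensity values for 10012 probes; the sources used here do not name its program, and detection flags were not used. Of these probes 115 had missing values and were left out. Intensities under the 5th percentile (0.0364) were raised to it, taken to log2 and shifted to a common array median; the lowest 25% of probes by mean over all arrays were left out, leaving 7422. Duplicate arrays were averaged. limma 3.58.1 in R 4.3.3 (lmFit and eBayes, two-sided, Benjamini-Hochberg adjustment, 3 residual degrees of freedom) fitted TSA against control and a slope per hour; the lone control pool is taken to vary like the TSA pools. Both were tested on simulated data. The number of arrays limits the precision. Symbols were updated through Entrez IDs (8975 of 8983 matched). Given array by array are members that passed a test or the 2-fold rule, the 2 brightest of each role and a list of genes; others are given by range. Promoters were searched with Python 3.11.15. The members and lists were chosen with earlier results of these data known. Alternatives were other normalisations, floors, filters, blocks, folds and leaving out arrays or pools.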

Additional observations from a re-analysis of the deposited data

Results flagged for a closer look

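The 4 TSA pools of 15 members above the filter were examined for a pool far from the others, and 2 members had one; chance gives about 1 in 20. For Wnt7a, the 7.5 h pool lay above the other TSA pools, with a gap of 0.869 of their whole range, past Dixon's critical value for 4 values, and its 2 arrays read 1.81 and 2.92. For Fzd3, the 10 h pool lay above the others, with a gap of 0.849 of the range and arrays of 0.507 and 0.648. The cause of either was not tested.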

How the results depend on the processing

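No alternative turned the direction of the called TSA folds of Fzd7 and Fgf3 or of the called slope of Axin1; the slope of Fgf3, which did not pass, was −0.0215 per hour over the 4 TSA pools alone and 0.0827 with the control. With no filter on dim probes 0 members passed the TSA test and 0 the trend, and 5, 2, 7 and 6 met the 2-fold rule at 2.5, 5, 7.5 and 10 h. Of all 9897 probes 219, 355, 554 and 458 met it, and every member so added was below the filter limit. An offset of 1 before log2 gave 0 members in all 6, while the TSA test then called 455 and the trend 53 of all probes. Leaving out the lowest 50% of probes, which removes Fzd7, Fgf3 and Axin1, gave 1 and 0 in the tests and 0, 0, 1 and 0 by time. Centring within 50 bins of neighbouring probe numbers gave 0 in the TSA test, 0 at 5 h and 1 at 7.5 h, and its trend call was Fzd9 and not Axin1; cyclic loess gave 2 at 5 h. At 1.5-fold 3, 4, 5 and 7 members met the rule at 2.5, 5, 7.5 and 10 h, beside 562, 730, 876 and 1221 of all 7422 probes. At 3-fold 0 members met it at every time, and 12, 42, 16 and 29 of all probes did. Over 10 arrays, the pool as a random block gave 4 and 4 in the TSA test and the trend, and no block 9 and 14; over all 7422 probes these fits called 1044 and 719, and 2660 and 2353. Arrays of different pools with the same number did not deviate together (correlations −0.187 to 0.140 over 10 pairs), and the replicate block gave 7 and 13 (2388 and 2111 of all probes). A trended, robust eBayes gave 4 in the TSA test (795 of all probes), and the 4 TSA pools alone gave 0 in the trend. Leaving out arrays or pools in turn gave 0 to 3 in the TSA test, 0 to 2 in the trend, and 1 to 2, 1 to 2, 0 to 2 and 2 to 3 by time; without a pool fewer samples remain, and the TSA test then called 3 to 7 of all probes. Over every alternative it called 1 to 2660 of all probes (262 as reported) and the trend 0 to 2353 (149 as reported).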
